A study of Mus musculus with 22 samples.

Results

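A set of 10 heart genes was followed across every culture of the series: the 6 transcription factors Nkx2-5, Tbx5, Hand1, Hand2, Isl1 and Mef2c and the 4 sarcomere genes Tnnt2, Myl7, Actc1 and Myh6. They were taken by gene symbol, and all 10 were found among the 55055 genes listed in all 4 tables. The cultures came from mouse embryonic stem (mES) cells that were wild type (wt) or carried the genotype label Hox-/- (BADC in the sample titles); differentiated samples are labelled mixed cells. Each genotype was sequenced as undifferentiated mES cells (2 libraries per genotype), whose medium held LIF, CHIR99021 (3 µM, blocks GSK-3) and a MEK inhibitor (1 µM). Each was also taken through an adherent endoderm differentiation with 100 ng/ml Activin A and 3 µM CHIR99021, added at 24 h and again at 72 h and collected at 120 h (3 libraries per genotype). Gastruloids, free-floating aggregates grown from stem cells that form embryo-like axes, were treated with Activin A (both genotypes) or Chiron (wt only) and sequenced at 96 h and 120 h, with 2 libraries in each of these 6 groups. The labels give no gastruloid doses, no number of clones per genotype and no statement that replicates were separate cultures. Genotype and cell line therefore cannot be told apart, and p-values measure the spread between these libraries only, which may be technical.

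Heart muscle forms from mesoderm in which a small network of transcription factors is switched on together. Nkx2-5 is a homeodomain factor of early heart progenitors, Tbx5 a T-box factor of the first heart field and the forelimb, and Hand1 and Hand2 are basic helix-loop-helix factors that are also made in lateral plate mesoderm. Isl1, a LIM-homeodomain factor, marks second heart field progenitors but also motor neurons and foregut endoderm, and Mef2c is a MADS-box factor shared by cardiac, skeletal muscle and endothelial cells. The factors switch on sarcomere genes: Tnnt2 encodes cardiac troponin T of the thin filament, Actc1 cardiac alpha-actin, Myl7 the atrial myosin light chain and Myh6 the alpha myosin heavy chain. Actc1 is also made in embryonic skeletal and smooth muscle. It therefore does not mark a heart cell alone, and neither do Tbx5, Hand1, Hand2, Isl1 or Mef2c.

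All 10 genes are protein-coding; positions are 1-based on mm10 with the strand after the interval. Nkx2-5 (ENSMUSG00000015579) lies at chr17:26838664-26845009 (minus), Tbx5 (ENSMUSG00000018263) at chr5:119832668-119885219 (plus) and Hand1 (ENSMUSG00000037335) at chr11:57828705-57832818 (minus). Hand2 (ENSMUSG00000038193) lies at chr8:57320983-57324633 (plus), Isl1 (ENSMUSG00000042258) at chr13:116298281-116309689 (minus) and Mef2c (ENSMUSG00000005583) at chr13:83504034-83667080 (plus). Tnnt2 (ENSMUSG00000026414) lies at chr1:135836354-135852260 (plus), Myl7 (ENSMUSG00000020469) at chr11:5896637-5898782 (minus), Actc1 (ENSMUSG00000068614) at chr2:114047282-114053548 (minus) and Myh6 (ENSMUSG00000040752) at chr14:54941921-54966927 (minus).

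The promoters of 3 genes are shown because their genes carry the main results: Actc1 and Isl1 led the set's counts in differentiated cultures, and Actc1 and Myl7 moved in opposite directions between genotypes. They are from RefSeq (GRCm38.p6), all on the minus strand, with 235 bases each, ending 16 bases before the annotated start. The windows are chr2:114052891-114053125 for Actc1, chr11:5898798-5899032 for Myl7 and chr13:116309704-116309938 for Isl1. Capitals mark a CArG box, the 10-base element bound by serum response factor, and GATAA, the core bound by GATA factors, each searched on both strands.
Actc1: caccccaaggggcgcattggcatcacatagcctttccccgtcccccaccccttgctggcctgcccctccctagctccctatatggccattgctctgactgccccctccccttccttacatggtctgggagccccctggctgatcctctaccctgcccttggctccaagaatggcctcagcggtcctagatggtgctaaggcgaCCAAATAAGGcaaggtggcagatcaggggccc
Myl7: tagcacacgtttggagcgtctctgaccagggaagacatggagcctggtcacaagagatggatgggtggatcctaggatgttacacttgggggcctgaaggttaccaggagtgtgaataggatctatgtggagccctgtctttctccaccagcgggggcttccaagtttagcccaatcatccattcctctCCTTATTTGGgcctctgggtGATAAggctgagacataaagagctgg
Isl1: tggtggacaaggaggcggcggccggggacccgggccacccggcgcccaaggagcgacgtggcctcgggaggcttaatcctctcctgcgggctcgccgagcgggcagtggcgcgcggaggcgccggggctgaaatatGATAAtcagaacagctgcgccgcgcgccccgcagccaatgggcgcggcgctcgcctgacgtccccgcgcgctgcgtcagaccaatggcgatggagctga
A CArG box stood 38 to 47 bases upstream of the RefSeq start of Actc1 and 52 to 61 bases upstream of that of Myl7. The Actc1 window lies inside the gene interval given above, whose start is further upstream than the RefSeq start used here. An exact match occurs in 1.47% of the 32851 RefSeq promoters over the same 250 bases upstream, and GATAA in 22.6% of them. Of the 10 genes, 8 had a promoter entry (11 entries in all), and no other entry held a CArG box; Tbx5 and Hand1 were not matched. These matches describe letters in a window and say nothing of a factor's binding in these cells.

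Libraries held 9.11 to 28.8 M counts. The floor of detection used below, 3 counts in a library, corresponds to 0.104 to 0.329 CPM, the count scaled to a library of 1 M. In the gastruloids the 120 h libraries were all shallower than the 96 h ones. As a check of the genotype labels, the 39 Hox genes together gave 33.1, 859, 643 and 1179 CPM in wt mES cells, endoderm, Activin gastruloids at 96 h and at 120 h, against 0.896, 25.8, 103 and 66.6 CPM in the Hox-/- libraries. Because the libraries are bulk RNA, fewer cells of a type and less RNA per cell cannot be told apart in any result below. Defining markers of working heart muscle, picked after their values were seen, were near absent: Nppa had at most 4 counts and Pln at most 1 count in any library.

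The set was weakly expressed outside endoderm cultures. Its summed level was 98.5 ± 14.4 CPM in wt endoderm (SD, n = 3) and 140 ± 5.43 CPM in Hox-/- endoderm, 50.6 CPM in wt Activin gastruloids at 120 h, and 3.93 to 28.8 CPM in the other 7 groups. Actc1 alone made up 67.2% of the sum in wt endoderm and 80.1% in Hox-/- endoderm, and Isl1 made up 58.9% in wt Activin gastruloids at 120 h. In mES cells the leading gene was Myl7, with 67.0% of the wt sum. The number of the 10 genes with 3 counts or fewer in every library of a group was 5 in wt and 7 in Hox-/- mES cells, 4 each in Chiron gastruloids at 120 h and Hox-/- Activin gastruloids at 96 h, and at most 2 elsewhere. On the length-corrected FPKM scale, which allows genes to be compared, the level of Actc1 was 45.0 ± 6.58 in wt endoderm against 5.93 ± 2.10 for Hand1, the next of the set there (SD, n = 3).

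**Figure D1:**
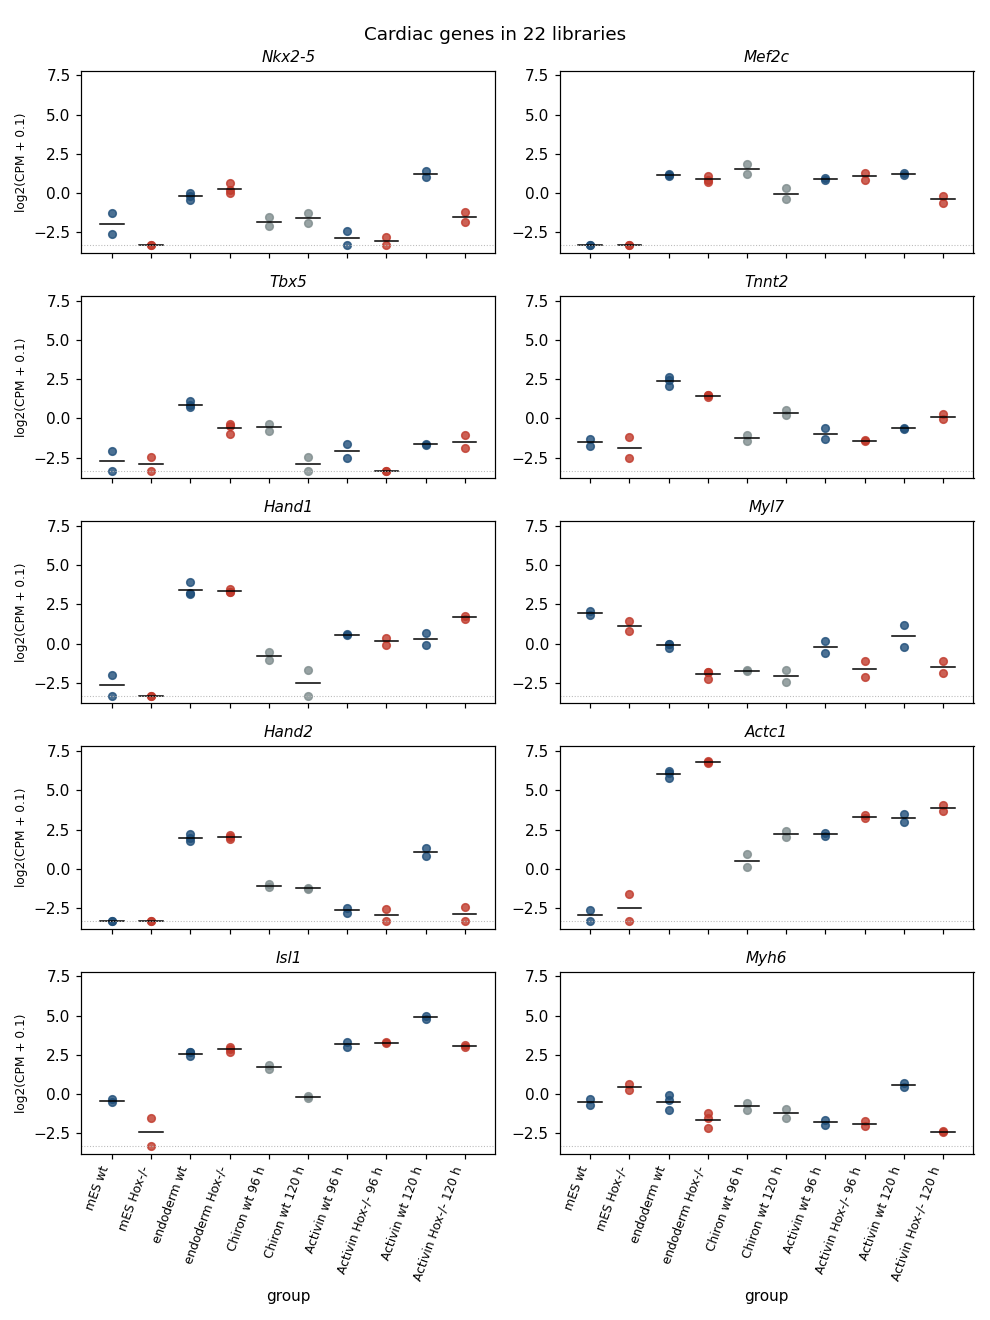
Level of each of the 10 genes in every library, as log2(CPM + 0.1), by group. Points are libraries (blue wt, grey Chiron wt, red Hox-/-), black bars the mean of the log values, and the dotted line a count of 0. Isl1 in wt Activin gastruloids at 120 h (27.8 and 31.9 CPM) and Actc1 in endoderm stand above every other group of the same gene.

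The first comparison asked how the genes differ between genotypes in Activin gastruloids at 120 h. Of the 10 genes, 9 passed the filter on low counts (Tbx5 did not), and 8 of these were called at an adjusted p under 0.05 by edgeR's quasi-likelihood test, 6 lower and 2 higher in Hox-/-. Over all 16831 genes tested, 50.4% were called. With 4 of the 9 genes (Nkx2-5, Hand2, Myh6 and Tnnt2) reaching the filter's level in 1 group alone, the count of calls was partly set by the filter. Nkx2-5, Hand2 and Myh6 reached that level in wt at 120 h alone, and Myl7 in wt groups alone. Their lower direction in Hox-/- was therefore partly set by the filter as well. Each gene is best read by its own values.

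Among the transcription factors, Isl1 had the most counts. It stood at 31.9 and 27.8 CPM in the wt libraries and at 8.10 and 8.51 CPM in the Hox-/- libraries. The groups did not overlap, and Isl1 was lower by 1.73 ± 0.13 on the log2 scale (edgeR log2 fold change -1.73, adjusted p = 1.07e-16). Nkx2-5 had 18 and 23 counts in wt against 4 and 2 in Hox-/-, and Mef2c had 20 and 21 against 9 and 6. Both fell: the count ratio of wt over Hox-/- was 8.30 (95% exact interval 3.50 to 23.9) for Nkx2-5 and 3.32 (1.80 to 6.46) for Mef2c, with edgeR adjusted p = 1.25e-05 and 0.00106. Intervals on counts cover counting error only.

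Hand2 was nearly confined to wt at this time. It had 22 and 15 counts in wt and 1 and 0 in Hox-/-, a count ratio of 44.9 with an interval of 7.58 to 1822 (edgeR adjusted p = 3.2e-07). Its fitted log2 fold change of -5.15 depends on the prior count and is no bound; leaving out Hox-/- replicate 1 gave -7.95, and leaving out replicate 2 gave -4.32. The overlapping antisense gene Hand2os1 had 5 counts or fewer in every library of the series, and whether the counting used strand is not given in the sources used here.

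Hand1, the close relative of Hand2, went the other way. Its levels were 0.865 and 1.54 CPM in wt and 2.93 and 3.27 CPM in Hox-/-, groups that did not overlap. Hand1 rose by 1.47 ± 0.35 on the log2 scale (edgeR adjusted p = 3.5e-04). Tbx5 had 2 counts in each wt library and 2 and 4 in Hox-/-, too few for the test.

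The sarcomere genes split in the same comparison. Actc1 was at 11.03 and 7.91 CPM in wt and 16.5 and 13.1 CPM in Hox-/-, and rose by 0.76 ± 0.15 on the log2 scale (edgeR adjusted p = 3.5e-05). Myh6 had 12 and 14 counts in wt against 1 and 1 in Hox-/-, a count ratio of 15.8 (interval 3.95 to 137, edgeR adjusted p = 2.5e-05). Myl7 had 20 and 7 counts in wt against 2 and 4, a ratio of 5.46 (2.21 to 16.2) with edgeR adjusted p = 0.0019. The Myl7 call rested on single libraries: it was lost without wt replicate 1 (log2 fold change -1.37, adjusted p = 0.22) and without Hox-/- replicate 1 (-1.84, adjusted p = 0.058). Tnnt2, with 5 and 5 counts in wt and 10 and 12 in Hox-/-, was not called (0.96 ± 0.55, adjusted p = 0.14). With limma on log2(FPKM + 1), Hand1, Mef2c, Myl7, Actc1 and Myh6 were not called.

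The other genes of the heart programme were divided as well. Over all genes, 24.9% were called higher and 25.5% lower. Of 20 further cardiac transcription factors and signals, 17 were tested and 6 rose and 6 fell. Of 17 further sarcomere genes, 12 were tested, with 4 higher and 4 lower. Medians of the log2 fold changes were -0.14 and 0.01, beside -0.02 over all genes. Tpm1, the tropomyosin shared by many cell types, rose from 519 ± 10.5 to 989 ± 31.6 CPM (SD, n = 2). Myh7, the beta myosin heavy chain that lies next to Myh6 and could share reads with it, fell from 5.61 ± 0.94 to 0.219 ± 0.178 CPM.

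Several of these genes, named after their values were seen, had large differences. Most of those named here fell, although their lists held as many called rises as falls, as given above. The named genes therefore do not stand for their lists. Myl3, a ventricular and slow muscle myosin light chain, fell from 8.22 ± 0.60 to 0.417 ± 0.468 CPM in Hox-/- at 120 h. Tbx20, a T-box factor of the heart, fell from 5.23 ± 0.21 to 0.845 ± 0.269 CPM, and Gata4, a zinc-finger factor of heart and endoderm, from 11.5 ± 0.10 to 5.82 ± 0.55 CPM. Mesp1, a factor of the earliest cardiac mesoderm, rose from 2.45 ± 0.36 to 19.8 ± 1.46 CPM (SD, n = 2 per group). All 4 had an edgeR adjusted p of 2.0e-05 or less.

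Markers of other cell types moved with these genes at 120 h. All 8 endoderm epithelium markers fell in Hox-/-, and their sum went from 922 ± 7.2 to 56.8 ± 2.3 CPM. This bears on Isl1 and Gata4, which foregut endoderm also makes. Of the neuron and motor neuron markers, 5 of 8 tested fell and 1 rose, with sums of 57.6 ± 2.5 and 36.6 ± 0.3 CPM; Olig2, of motor neuron progenitors, fell from 10.1 ± 0.43 to 0.227 ± 0.076 CPM. Of the endothelial markers, 6 of 9 tested rose and none fell, with sums of 46.8 ± 4.6 and 75.2 ± 1.4 CPM. Of the neural crest and sympathetic markers, 2 of 5 tested rose and 1 fell, with sums of 58.1 ± 0.26 and 146 ± 5.29 CPM. The rise of this sum came from Ngfr, which went from 21.3 ± 0.77 to 119 ± 2.67 CPM. Ret went from 32.7 ± 0.79 to 22.1 ± 2.54 CPM. Of the lateral plate and epicardial markers, where Hand genes are also made, 3 of 8 rose and 3 fell, with sums of 79.7 ± 0.89 and 87.6 ± 0.29 CPM. Acta2, the smooth muscle alpha-actin and a paralog of Actc1, rose from 9.54 ± 0.49 to 50.4 ± 3.09 CPM, while 1 of 6 smooth muscle markers rose and none fell. The part of these cell types in the differences of the heart genes was not tested.

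At 96 h the genotypes were closer. Of the 9 genes tested, 2 were called, Actc1 higher and Myl7 lower in Hox-/-, beside 38.9% of all genes. Actc1 was at 4.80 and 4.22 CPM in wt and 9.30 and 10.6 CPM in Hox-/-, and rose by 1.19 ± 0.14 on the log2 scale (edgeR adjusted p = 1.4e-09). Myl7 had 13 and 26 counts in wt against 8 and 2, a ratio of wt over Hox-/- of 2.93 (1.44 to 6.59) with edgeR adjusted p = 0.022. Myl7 reached the filter's level in wt groups alone, so its direction was partly set by the filter. Its log2 fold change was -2.47 without Hox-/- replicate 1. The call was lost without wt replicate 2 (log2 fold change -1.002, adjusted p = 0.30) or Hox-/- replicate 2 (-1.04, adjusted p = 0.18).

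Isl1 was at 9.82 and 8.10 CPM in wt and 9.73 and 9.30 CPM in Hox-/- at 96 h, with overlapping libraries and a log2 fold change of 0.15 ± 0.12 (edgeR adjusted p = 0.32). Nkx2-5 and Hand2 were at or below 3 counts in every Activin library at this time. Acta1, the skeletal alpha-actin and a close paralog of Actc1, rose from 1.88 ± 0.02 to 8.02 ± 1.03 CPM (SD, n = 2), and 2 of 6 smooth muscle markers rose and 1 fell, their sum going from 20.01 ± 0.58 to 41.4 ± 0.044 CPM. Of the endoderm epithelium markers, 7 of 8 fell, with sums of 1088 ± 77.8 and 598 ± 12.8 CPM. Of the lateral plate and epicardial markers, 3 of 8 rose and none fell, with sums of 24.4 ± 2.83 and 55.3 ± 1.11 CPM. Most of this sum was Bmp4, at 21.6 ± 3.20 and 48.7 ± 1.30 CPM. Over all genes, 22.2% were called higher and 16.7% lower. The part of these cell types in the Actc1 and Myl7 differences was not tested.

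The change of the genotype difference between 96 h and 120 h was tested as an interaction. Of 9 genes, 4 were called, beside 38.9% of all genes (18.7% higher, 20.2% lower): Isl1 (-1.89 ± 0.17), Mef2c (-1.80 ± 0.49) and Myh6 (-3.64 ± 1.18) with a lower, and Hand1 (1.90 ± 0.47) with a higher log2 difference at 120 h than at 96 h (edgeR adjusted p = 9.5e-13, 0.0026, 0.011 and 9.8e-04). Between the 2 times Isl1 rose in wt by 1.67 ± 0.11 (adjusted p = 2.3e-19) and was not called in Hox-/- (-0.22 ± 0.14, adjusted p = 0.16). Mef2c, at 1.73 and 2.34 CPM in Hox-/- at 96 h and 0.776 and 0.561 CPM at 120 h, fell there by 1.57 ± 0.38 on the log2 scale (edgeR adjusted p = 2.9e-04). Myh6 reached the filter's level in wt at 120 h alone, so the side of its interaction was partly fixed by the filter. The Myh6 interaction missed the threshold without Hox-/- replicate 2 at 96 h (adjusted p = 0.076) or Hox-/- replicate 1 at 120 h (adjusted p = 0.057).

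**Figure D2:**
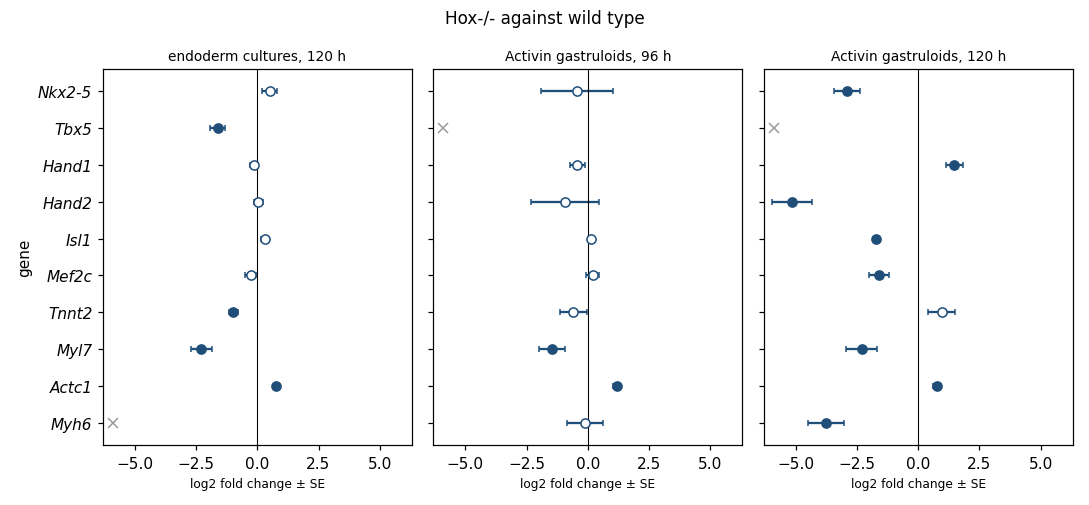
Log2 fold change of Hox-/- against wt for each gene (edgeR, horizontal bars ± SE) in endoderm cultures and in Activin gastruloids at 96 h and 120 h. Filled points have an adjusted p under 0.05, open points do not, and grey crosses at the left edge mark genes that did not pass the filter. Actc1 is to the right of 0 and Myl7 to the left in all 3 panels. Myl7 reached the filter's level in wt groups alone in each fit, which partly set its side. Nkx2-5, Hand2 and Myh6 reached it in wt Activin gastruloids at 120 h alone in the gastruloid fit, which partly set their side in the 120 h panel. Values against groups at the floor, such as Hand2 at 120 h, depend on the prior count.

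Endoderm cultures gave the highest CPM levels of Actc1, Hand1, Hand2, Tbx5 and Tnnt2 in the series, a comparison across separate tables. Of the 9 genes tested (Myh6 was not), 4 were called between genotypes, beside 46.2% of all genes. Tbx5 had 25, 26 and 21 counts in wt and 7, 10 and 11 in Hox-/-. It fell by 1.61 ± 0.30 on the log2 scale (edgeR adjusted p = 6.3e-04), and the libraries of the genotypes did not overlap.

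The other 5 transcription factors of the set were not called in endoderm. Hand1 was at 8.68, 9.43 and 15.5 CPM in wt and 11.1, 9.53 and 9.70 CPM in Hox-/-, and Hand2 at 3.33, 3.76 and 4.596 against 3.69, 4.43 and 3.91 CPM. The libraries of both genes overlapped. Isl1 was at 6.25, 5.21 and 6.20 CPM in wt and 6.25, 8.06 and 7.37 CPM in Hox-/-, a log2 fold change of 0.31 ± 0.14 with edgeR adjusted p = 0.090.

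Of the sarcomere genes, 3 were called in endoderm. Tnnt2 was at 4.06, 5.41 and 6.20 CPM in wt and 2.73, 2.71 and 2.52 CPM in Hox-/-, and fell by 0.97 ± 0.19 on the log2 scale (edgeR adjusted p = 7.3e-04). Myl7 had 11, 11 and 12 counts in wt and 2, 3 and 3 in Hox-/-, a ratio of 5.13 (2.33 to 12.8, edgeR adjusted p = 5.8e-04); it reached the filter's level in wt alone. Actc1 was at 55.7, 68.7 and 74.0 CPM in wt and 118, 111 and 108 CPM in Hox-/-, and rose by 0.77 ± 0.08 (edgeR adjusted p = 3.6e-06). Actc1 and Tnnt2, both thin filament genes, thus changed in opposite directions, and neither pair of groups overlapped.

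Over all genes in endoderm, 23.1% were called higher and 23.1% lower. Acta2 rose from 310 ± 43.9 to 672 ± 39.9 CPM (SD, n = 3), and Tagln, an actin-binding protein of smooth muscle, from 662 ± 50.4 to 836 ± 80.0 CPM. Of 6 smooth muscle markers tested, 3 rose and 1 fell, with sums of 1124 ± 109 and 1690 ± 133 CPM. Acta1 was at 16.1 ± 4.0 and 19.9 ± 0.7 CPM and was not called (edgeR adjusted p = 0.076). Tpm1 rose from 1943 ± 70 to 3204 ± 66 CPM, and of the 11 other sarcomere genes tested 2 rose and 1 fell. Of 15 other cardiac transcription factors and signals tested, 3 rose and 7 fell, with a median log2 fold change of -0.25. All 8 endoderm epithelium markers fell, from a sum of 1120 ± 2.16 to 716 ± 27.6 CPM, and 4 of 7 endothelial markers fell, from 26.7 ± 0.78 to 13.2 ± 1.19 CPM. Reads that fit several actin genes could be shared by the counting, and neither this nor the part of these cell types in the differences was tested.

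**Figure D3:**
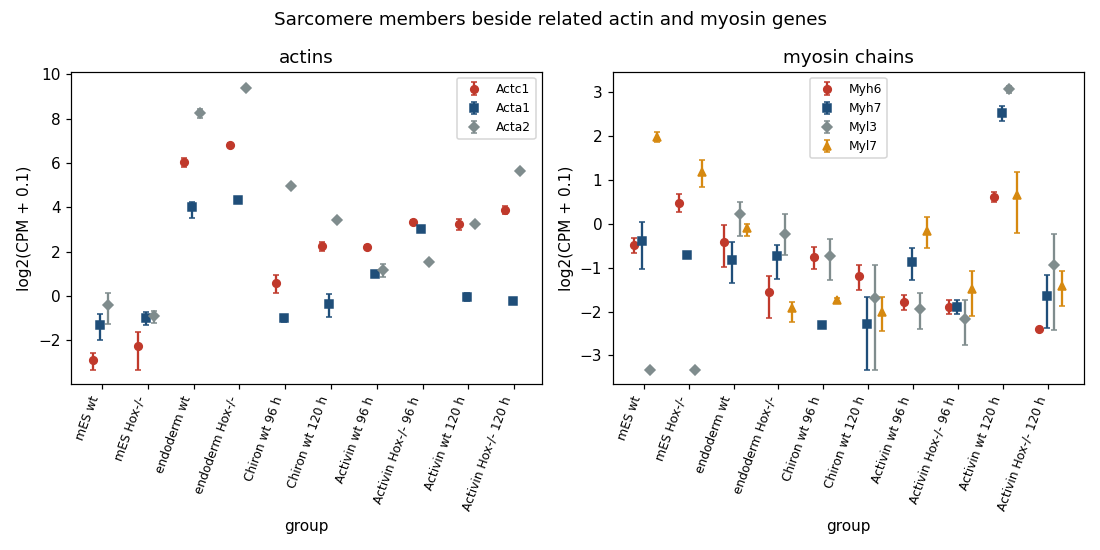
Group means of actin genes (left) and myosin chain genes (right) as log2(CPM + 0.1); bars run from the lowest to the highest library of a group. Acta2 exceeds Actc1 in endoderm (310 against 66.1 CPM in wt), and Myh7, Myl3 and Myh6 have their highest group mean in wt Activin gastruloids at 120 h. For Myh6 this mean is 1.42 CPM, and its libraries there overlap those of Hox-/- mES cells, with a mean of 1.29 CPM.

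Whether a genotype difference depended on the culture was tested in 1 fit over endoderm and Activin gastruloids at 120 h. All 10 genes were tested and 6 were called, 4 lower and 2 higher, beside 32.2% of all genes. The log2 difference in gastruloids minus that in endoderm was -2.05 ± 0.19 for Isl1 (edgeR adjusted p = 8.5e-09), -3.42 ± 0.65 for Nkx2-5 (2.3e-04), -5.20 ± 0.80 for Hand2 (1.5e-05) and -1.35 ± 0.44 for Mef2c (0.021). The Hand2 value, which involves a group at the floor, became -7.92 on leaving out Hox-/- replicate 1 at 120 h and -4.36 on leaving out replicate 2. It was 1.60 ± 0.47 for Hand1 (0.0096) and 1.92 ± 0.55 for Tnnt2 (0.0084). For Actc1 the difference was -0.02 ± 0.22 (adjusted p = 0.97), which leaves its dependence on culture unresolved within that error. Scaling by total counts alone moved the share of higher calls over all genes from 47.4% to 33.3% in this comparison; the same scaling moved it from 49.4% to 34.6% in Activin gastruloids at 120 h, with a shift of the median of all genes of -0.11, and from 57.0% to 42.5% at 96 h. None of the called genes of the set changed direction under it.

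In mES cells only Myl7 and Myh6 passed the filter, and 1 of these 2 was called, beside 23.2% of all genes. Myl7 was at 3.52 and 4.12 CPM in wt and 2.61 and 1.68 CPM in Hox-/-, and fell by 0.81 ± 0.26 on the log2 scale (edgeR adjusted p = 0.019). The call was lost without wt replicate 2 (adjusted p = 0.15) or Hox-/- replicate 2 (adjusted p = 0.19). Myh6 had 8 and 9 counts in wt and 20 and 13 in Hox-/-, and was not called (1.08 ± 0.43, adjusted p = 0.066). On the FPKM scale Myl7 stood at 6.16 ± 1.07 in wt mES cells, above its level in every other group, with the other 9 genes at 0.321 or less there.

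In wt gastruloids, Activin A was compared with Chiron at each time; these comparisons share the wt Activin libraries with the genotype comparisons above. At 120 h, 8 of 9 tested genes were called and all 8 were higher with Activin A, beside 41.9% of all genes called in either direction and 20.3% called higher. The filter partly set this count: Nkx2-5, Hand2 and Myh6 reached its level in wt Activin gastruloids at 120 h alone, and Hand1 and Myl7 in Activin groups alone. Isl1 had 295 and 253 counts with Activin A and 10 and 7 with Chiron, and rose by 5.16 ± 0.23 on the log2 scale (edgeR adjusted p = 5.7e-15). Nkx2-5 had 18 and 23 counts against 2 and 3, a ratio of 9.54 (3.77 to 30.9), and Hand2 22 and 15 against 4 and 3, a ratio of 6.15 (2.71 to 16.4). Hand1 had 8 and 14 counts against 0 and 2, a ratio of 12.8 (3.15 to 112). Mef2c had 20 and 21 counts against 8 and 11, a ratio of 2.51 (1.43 to 4.58), and its call was lost without either wt Activin library (adjusted p = 0.052 and 0.076) or Chiron replicate 1 (adjusted p = 0.20).

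Of the sarcomere genes at 120 h, Actc1 was at 11.03 and 7.91 CPM with Activin A and 5.28 and 4.03 CPM with Chiron, and rose by 0.95 ± 0.23 (edgeR adjusted p = 0.0016). Myl7 had 20 and 7 counts against 1 and 2, a ratio of 10.5 (3.22 to 53.9), and Myh6 12 and 14 against 3 and 4, a ratio of 4.32 (1.83 to 11.8). Without Activin A replicate 1 the count of called genes fell from 8 to 5: Actc1 (adjusted p = 0.063), Myl7 (0.075) and Mef2c missed the threshold. Without Chiron replicate 1, Myh6 missed it as well (0.079). Tnnt2, the 1 gene not called, had 5 and 5 counts with Activin A and 16 and 10 with Chiron (-1.198 ± 0.52, adjusted p = 0.066).

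Further heart genes were also higher with Activin A at 120 h, but not evenly across lists. Of 9 tested genes of cardiac ion handling, natriuretic peptides and conduction, 4 rose and 3 fell, with a median log2 fold change of 0.73. Over all genes, 20.3% were called higher and 21.6% lower. Of 18 other cardiac transcription factors and signals tested, 13 rose and 1 fell, with a median log2 fold change of 0.91; of 13 other sarcomere genes, 9 rose and 1 fell, with a median of 1.29; the median over all genes was -0.01. Tbx3, a T-box factor of the conduction system, rose by 0.81 ± 0.23 and Tpm1 by 0.80 ± 0.05. The same comparison raised markers of other tissues: all 8 endoderm epithelium markers, 6 of 8 lateral plate and epicardial markers (1 fell), 6 of 9 endothelial markers (1 fell) and 6 of 9 neuron and motor neuron markers (none fell). Their part in the heart gene values was not tested.

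At 96 h the treatments gave a mixed picture, with 7 of 9 genes called beside 61.6% of all genes (31.3% higher, 30.2% lower), 4 higher and 3 lower with Activin A. Isl1 was at 9.82 and 8.10 CPM against 3.60 and 2.91 CPM with Chiron, and rose by 1.41 ± 0.15 (edgeR adjusted p = 2.3e-08). Actc1 was at 4.80 and 4.22 against 1.80 and 1.01 CPM, and rose by 1.67 ± 0.24 (edgeR adjusted p = 2.0e-06). Hand1 and Myl7 were higher with Activin A as well, with ratios of 2.74 (1.71 to 4.53) and 3.98 (1.95 to 8.95). Both reached the filter's level in Activin groups alone, so their direction was partly set by the filter. The 3 lower genes were Hand2, with 1 and 2 counts against 7 and 12, Mef2c, with 39 and 48 against 46 and 100, and Myh6, with 5 and 4 against 8 and 17. The Mef2c call was lost without Chiron replicate 2 (log2 fold change -0.35, adjusted p = 0.31) or Activin replicate 1 (-0.67, adjusted p = 0.061), and the Myh6 call without Chiron replicate 2 (adjusted p = 0.23) or either Activin library (0.053 and 0.16). The Myl7 call was lost without Activin replicate 2 (adjusted p = 0.088).

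Over time, the treatments diverged. In wt Activin gastruloids 5 of 9 genes rose between 96 h and 120 h, beside 74.9% of all genes called in either direction and 37.2% called higher. Of these 5, Nkx2-5, Hand2 and Myh6 reached the filter's level in wt at 120 h alone, so their direction was largely fixed by the filter. Nkx2-5 went from 2 and 0 counts to 18 and 23, a ratio of CPM-scaled counts of 53.9 (14.0 to 460), and Hand2 from 1 and 2 counts to 22 and 15, a ratio of 32.4 (10.3 to 165). Actc1, Isl1 and Myh6 rose too, Actc1 by 1.00 ± 0.17 on the log2 scale (edgeR adjusted p = 9.4e-07). In wt Chiron gastruloids 5 of 9 were called, beside 61.7% of all genes (28.5% higher, 33.2% lower): Actc1 rose by 1.70 ± 0.27 and Tnnt2 by 1.78 ± 0.46, while Isl1 fell by 2.11 ± 0.32, Mef2c by 1.81 ± 0.34 and Hand1 by 2.44 ± 0.86 (edgeR adjusted p of 0.017 or less). Tnnt2 reached the filter's level in Chiron gastruloids at 120 h alone. The Hand1 value ranged from -6.29 without Chiron replicate 2 at 120 h to -1.35 without replicate 1. Without Chiron replicate 1 at 120 h, Hand1 and Tnnt2 missed the threshold (adjusted p = 0.25 and 0.053), and Hand1 did so too without Chiron replicate 2 at 96 h (adjusted p = 0.096).

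Tbx5, below the test's filter in gastruloids, had its highest gastruloid counts in Chiron libraries at 96 h (10 and 20) and 1 and 0 at 120 h, a ratio of 13.0 (2.16 to 530). In Hox-/- Activin gastruloids 5 of 9 genes were called between the times, beside 72.4% of all genes (34.9% higher). Hand1 rose by 1.62 ± 0.31, Tnnt2 by 1.80 ± 0.54 and Actc1 by 0.57 ± 0.13 on the log2 scale, and Mef2c fell, as above. Tnnt2 reached the filter's level in Hox-/- at 120 h alone. Nkx2-5, the other call, had 1 and 0 counts at 96 h and 4 and 2 at 120 h; the call was lost without Hox-/- replicate 2 at 96 h (adjusted p = 0.12) or replicate 1 at 120 h (0.21).

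The treatment difference itself changed with time for 5 of 9 genes, beside 39.6% of all genes, and all 5 were more on the Activin A side at 120 h; for Nkx2-5, Hand2 and Myh6, which reached the filter's level in wt Activin gastruloids at 120 h alone, the filter partly fixed that side. The interaction was 3.75 ± 0.32 for Isl1 (edgeR adjusted p = 1.8e-09) and 2.03 ± 0.48 for Mef2c (0.0015). It was 5.18 ± 1.14 for Nkx2-5 (8.0e-04), 5.10 ± 0.85 for Hand2 (4.2e-05) and 3.50 ± 0.76 for Myh6 (6.9e-04), of which the first 2 involve groups at the floor. The Nkx2-5 value was 7.86 without Activin replicate 1 and 4.18 without Activin replicate 2 at 96 h.

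**Figure D4:**
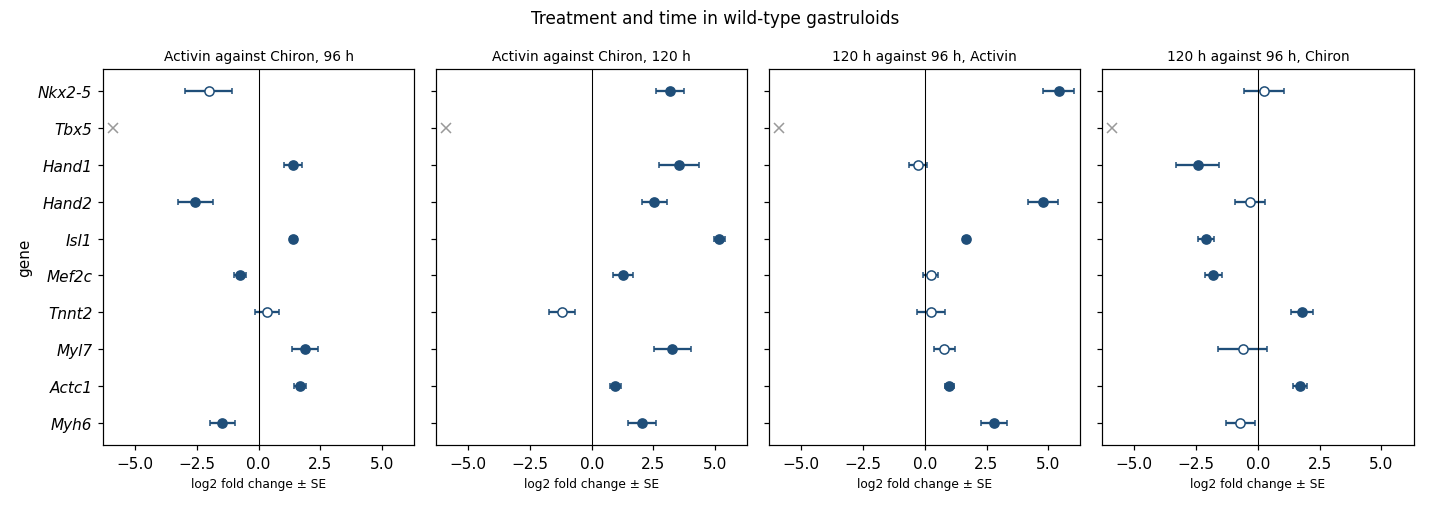
Log2 fold change (edgeR, horizontal bars ± SE) in wt gastruloids of Activin A against Chiron at 96 h and 120 h, and of 120 h against 96 h within each treatment. Filled points have an adjusted p under 0.05, open points do not, and grey crosses at the left edge mark Tbx5, which did not pass the filter. Isl1 is at 5.16 for Activin A against Chiron at 120 h, and Isl1, Hand1 and Mef2c are filled and left of 0 for time in Chiron gastruloids.

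For Myh6 the scale mattered. Myh6 in wt Activin gastruloids at 120 h was at 1.30 and 1.54 CPM (12 and 14 counts), but at 0.157 and 1.41 FPKM in the same 2 libraries. The libraries were thus close in counts and far apart in FPKM, with a mean of 0.781 ± 0.883 FPKM (SD, n = 2), and reads shared by Myh6 and Myh7 were not traced.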

How the data were processed

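Per the labels' protocols, libraries came from a stranded TruSeq mRNA kit with poly(A) selection. The submitters' processing notes name cutadapt 1.16, STAR, Cufflinks 2.2.1 and the mm10 build; the counting tool and its strand setting are not given in the sources used here. As deposited, one set of tables gives whole read counts per gene without normalization. The authors' FPKM values, scaled for length and depth, come in separate tables with gene symbols and positions. Of the 55141 identifiers, 93% had the same position in GENCODE M21 after adding 1 to the start. The 4 wt Activin A libraries were identical in both gastruloid tables.

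CPM divides a count by its library's total. Tests on counts used edgeR 4.0.16 (R 4.3.3; filterByExpr, TMM, 1 coefficient per group, quasi-likelihood test, Benjamini-Hochberg over all genes tested, called under 0.05), per table, with 12 contrasts in all; genotype by culture used 1 fit over endoderm and Activin tables. SE is the log2 fold change over the square root of F. Count ratios are scaled by library totals, with exact 95% binomial intervals. A group with 3 counts or fewer in every library is at the floor; intervals and floors cover counting error only. Named genes are the 10 members, up to 4 genes per list (those with the highest mean CPM in any 1 group), paralogs and neighbours within 5 kb, and genes of like pattern; others are said to be chosen later. Members, the 11 lists of 127 other genes and all tests were chosen with earlier results of these data known. Statistics were tested on simulated counts. Alternatives were RLE or total-count scaling, 2 other filters, DESeq2 1.42.0, limma 3.58.1 on log2(FPKM + 1) and log2(FPKM + 0.1), a replicate block, fits on the compared groups alone and each library left out.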

Additional observations from a re-analysis of the deposited data

Results flagged for a closer look

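The effects below differed between times or cultures by an interaction test (edgeR, adjusted over all genes). The genotype difference in Activin gastruloids changed between 96 h and 120 h by 1.9 on the log2 scale for Hand1, -1.89 for Isl1, -1.8 for Mef2c and -3.64 for Myh6. The difference between Activin A and Chiron in wt gastruloids changed between the times by 5.18 for Nkx2-5, 5.1 for Hand2, 3.75 for Isl1, 2.03 for Mef2c and 3.5 for Myh6. In both gastruloid fits Nkx2-5, Hand2 and Myh6 reached the filter's level in wt Activin gastruloids at 120 h alone. The filter thus partly fixed the side of their changes between the times. The genotype difference in Activin gastruloids at 120 h, less that in endoderm, was -3.42 for Nkx2-5, 1.6 for Hand1, -5.2 for Hand2, -2.05 for Isl1, -1.35 for Mef2c and 1.92 for Tnnt2. These 3 sets share the wt Activin libraries at 120 h. Without wt Activin replicate 1 at 120 h, the culture difference of Hand1 was 1.24 with adjusted p = 0.099. That of Tnnt2 was 1.74 (adjusted p = 0.066) and that of Mef2c -1.15 (adjusted p = 0.12) without Hox-/- replicate 2 at 120 h, and Mef2c was -1.30 (adjusted p = 0.068) without wt replicate 2 at 120 h.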

How the results depend on the processing

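Of 102 gene results tested, 60 were called, and 26 of these kept direction and call under every alternative run. Of 751 alternative values of called results, 674 kept direction and call, 76 kept direction and missed the threshold, and 1 changed sign: Mef2c for treatment at 96 h, 0.013 in limma on log2(FPKM + 1). Most lost calls came from limma on log2(FPKM + 1) (27), DESeq2 (15) and limma on log2(FPKM + 0.1) (6). The difference in Actc1's genotype effect between cultures, not called, was 0.00082 with RLE and with DESeq2, 0.0052 without a filter, and -0.228 to 0.243 with 1 library left out.

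The counts of called genes that moved by over 1.5 times were as follows; smaller moves are not listed. With at least 10 counts in every library fewer genes were tested, and the counts were endoderm 2, Activin genotype 1 at 96 h and 2 at 120 h, treatment 1 at 96 h and 1 at 120 h, time 2 in wt Activin, 1 in Hox-/- Activin and 1 in Chiron, genotype by time 1, treatment by time 0 and genotype by culture 1. With DESeq2 they were mES 0, Activin 96 h 1, treatment 96 h 3, Chiron time 3 and genotype by time 2. With limma on log2(FPKM + 1) they were mES 0, Activin genotype 1 and 3, treatment 3 and 5, and Hox-/- Activin time 1. With limma on log2(FPKM + 0.1) they were mES 0, Activin genotype 1 and 4, treatment 3 and 4, time 3, 1 and 2, genotype by time 2 and treatment by time 2. Without a filter the mES count was 2. For these last 4 settings the cause was not tested. Leaving out 1 library gave 0 to 1 in mES cells, 4 to 6 in endoderm, 1 to 2 and 7 to 8 for Activin genotype, 5 to 7 and 5 to 8 for treatment, 5 to 6, 4 to 5 and 4 to 6 for time, 3 to 5 for genotype by time, 5 to 6 for treatment by time and 4 to 7 for genotype by culture. FPKM fits across the endoderm and Activin tables were not run.

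The replicate numbers did not pair the samples: correlations of same-numbered deviations were -0.133, 0.151 and 0.00123 in endoderm, where not every sample correlated best with its own number, and -0.0372 to 0.0599 elsewhere. The replicate block left every count of called genes as it was (1, 4, 2, 8, 7, 8, 5, 5, 5, 4, 5 and 6).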

Other observations

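Genes outside the set whose group means ran most like the set's were named by a fixed measure, the Pearson correlation over the 10 group means of log2(CPM + 0.5) with the mean of the standardised values of the members, among 13268 genes with at least 5 CPM in 1 group. This is a description without a test, since the points share libraries and depth. For the 6 transcription factors the nearest were Cd44 (0.973), a hyaluronan receptor, Capn6 (0.970), Rnase4 (0.970), Nradd (0.964) and Fhl2 (0.959), a LIM-domain protein of heart muscle. Fhl2 was at 17.2 and 23.4 CPM in wt and Hox-/- endoderm and at 14.1 and 2.06 CPM in wt and Hox-/- Activin gastruloids at 120 h. Capn6 was at 61.2 and 17.7 CPM in endoderm and 28.1 and 8.57 CPM in Activin gastruloids at 120 h, again wt first.

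For the 4 sarcomere genes the nearest was Foxa3 (0.962), a forkhead factor of endoderm, at 6.72 and 1.79 CPM in wt and Hox-/- endoderm and 3.05 and 0.187 CPM in Activin gastruloids at 120 h. Kdelr3 (0.934), Dcaf6 (0.932), Synj2 (0.931) and Use1 (0.927) followed. The sarcomere members themselves had only 0.369 (Myl7) to 0.654 (Tnnt2) with their own mean, against 0.756 (Isl1) to 0.892 (Hand2) for the transcription factors.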
